A study of Sus scrofa with 36 samples.

Results

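The genes described here encode subunits of the NMDA and AMPA receptors, the ion channels that carry most fast excitatory signalling by glutamate. They are the NMDA receptor genes GRIN1, GRIN2A, GRIN2B, GRIN2C, GRIN2D and GRIN3A and the AMPA receptor genes GRIA1, GRIA2, GRIA3 and GRIA4. These 10 genes, of 31907 Ensembl pig gene identifiers counted in each library, were chosen by name and not by their values. RNA of the cerebellum was sequenced as bulk tissue from 36 term-born piglets of both sexes, with 9 piglets in each of 4 groups. The piglets had a normal birth weight (NBW) or were intrauterine growth restricted (IUGR), and from 3 days of age they received for 3 weeks a formula with bovine milk fat (MILK) or with vegetable oil in its place (VEG). The groups are thus VEG-NBW, MILK-NBW, VEG-IUGR and MILK-IUGR, and no sow-fed group was analysed here. Litter is not in the sample labels and was not used.

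An NMDA receptor is built around the GRIN1 product, joined by products of the GRIN2 genes and at times of GRIN3A. While the cerebellum matures, granule neurons, the most numerous neurons of the tissue, are known to replace GRIN2B by GRIN2A and, late in maturation, by GRIN2C, so the ratio of GRIN2C or GRIN2A to GRIN2B in a piglet serves as a sign of maturation. AMPA receptors are assembled from the GRIA products, and those that contain the edited GRIA2 product hardly pass calcium.

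By the RefSeq annotation of Sscrofa11.1, the genome build named in the submitters' processing notes, GRIN2A (ENSSSCG00000031290) lies at chr3:32749329-33149350, GRIN2B (ENSSSCG00000000614) at chr5:58477862-58948735 and GRIN2C (ENSSSCG00000023151) at chr12:6385407-6401454. GRIN2D (ENSSSCG00000003133) lies at chr6:53809590-53849535 and GRIN3A (ENSSSCG00000005400) at chr1:243263202-243416739. GRIN1 (ENSSSCG00000039834) is on a sequence that RefSeq has not placed on a chromosome. Of the AMPA receptor genes, GRIA1 (ENSSSCG00000022569) lies at chr16:69332786-69654366, GRIA2 (ENSSSCG00000024685) at chr8:46078122-46247144, GRIA3 (ENSSSCG00000012638) at chrX:100827293-101109213 and GRIA4 (ENSSSCG00000030565) at chr9:35442060-35803989.

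In 3 libraries the share of read pairs not assigned to a gene stood apart in its group by Dixon's criterion. It was 43.6% in piglet 202 of VEG-NBW, 64.3% in piglet 210 of VEG-IUGR and 31.5% in piglet 213 of MILK-NBW, against 26.7% to 30.5% in the other 33 libraries. The values below are of these 33 libraries, with 8 piglets each in VEG-NBW, VEG-IUGR and MILK-NBW and 9 in MILK-IUGR (16 females and 17 males), and some of the differences, ratios and correlations are also given with all 36. The 33 libraries held 15516541 to 23027502 read pairs on genes (median 18025540). Markers of the cerebellum were well detected: all 9 granule neuron markers, among them GABRA6 and NEUROD1, had a median count of at least 10, as had all 8 Purkinje cell markers. EMX1, a gene of the forebrain, had a median count of 0 (highest 3). In bulk RNA, fewer cells of a type and less RNA per cell cannot be told apart.

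GRIN1 had 0 counts in all 36 libraries. Were its read pairs countable, 0 counts would allow up to 0.130 to 0.378 CPM (counts scaled to the size of the library), depending on the library (3 counts, counting error only). However, all 145 protein-coding symbols that RefSeq puts on no chromosome were at 0 in every library, against 246 of 13632 symbols on a chromosome (1.81%). The 0 is therefore not read as absence of GRIN1 RNA, and the obligatory NMDA receptor subunit was not measured here. The other 9 genes passed the filter on low counts.

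Levels are given as CPM after scaling of the libraries by the trimmed mean of M values (TMM). No transcript lengths were used, so levels are compared between piglets for a gene and not between genes. GRIN2B, the subunit gene of young granule neurons and their precursors, had the fewest read pairs, 19 to 60 per library (median 37). Its level had a median (and range) of 1.70 CPM (1.17 to 2.96) in VEG-NBW, 1.94 (1.20 to 2.92) in VEG-IUGR, 1.95 (1.296 to 3.10) in MILK-NBW and 2.22 (1.52 to 3.29) in MILK-IUGR. The 4 ranges overlapped almost wholly, with the lowest mean in VEG-NBW and the highest in MILK-IUGR.

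GRIN2A, whose product takes over from GRIN2B at many maturing synapses, had 184 to 517 read pairs per library. It had a median (and range) of 19.7 CPM (12.2 to 25.3) in VEG-NBW, 17.9 (11.95 to 23.5) in VEG-IUGR, 18.8 (11.3 to 22.7) in MILK-NBW and 19.4 (14.8 to 24.9) in MILK-IUGR. No group stood outside the others. GRIN2C, the subunit gene of mature granule neurons, was counted with 1590 to 3710 read pairs. Its level had a median (and range) of 143 CPM (114 to 210) in VEG-NBW, 124 (93.9 to 179) in VEG-IUGR, 137 (125 to 150) in MILK-NBW and 135 (96.9 to 173) in MILK-IUGR. The MILK-NBW piglets lay close together, with 137 ± 10.5 CPM (SD, n = 8), inside the ranges of the other groups.

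GRIN2D encodes a subunit that is prominent early in development and gives slowly closing channels. It had a median (and range) of 21.4 CPM (18.1 to 24.1) in VEG-NBW, 21.9 (17.8 to 29.9) in VEG-IUGR, 22.8 (19.3 to 28.2) in MILK-NBW and 22.0 (9.69 to 28.7) in MILK-IUGR. The lowest value belonged to piglet 207 and lay below every other piglet of the 33. GRIN3A encodes a glycine-binding subunit that lowers the calcium entry of receptors holding it. It had a median (and range) of 20.4 CPM (14.6 to 25.4) in VEG-NBW, 19.5 (16.3 to 22.0) in VEG-IUGR, 21.1 (18.2 to 27.1) in MILK-NBW and 18.7 (15.4 to 23.1) in MILK-IUGR. Both NBW groups had a higher mean than both IUGR groups, but all 4 ranges overlapped.

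Among the AMPA receptor genes, GRIA1, which in the cerebellum is known from Bergmann glia, had a median (and range) of 306 CPM (223 to 390) in VEG-NBW, 253 (230 to 360) in VEG-IUGR, 303 (269 to 380) in MILK-NBW and 291 (262 to 342) in MILK-IUGR. The lowest and the highest piglet were both VEG-NBW. GRIA2, which sets calcium permeability, had a median (and range) of 255 CPM (188 to 325) in VEG-NBW, 216 (144 to 302) in VEG-IUGR, 193 (164 to 234) in MILK-NBW and 233 (179 to 286) in MILK-IUGR. Its highest group mean was 1.24 times its lowest, the widest gap of the 9 genes, and still all 4 ranges overlapped.

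GRIA3, the X-linked AMPA receptor gene, had a median (and range) of 71.0 CPM (58.6 to 92.2) in VEG-NBW, 67.1 (61.9 to 77.3) in VEG-IUGR, 71.9 (59.3 to 79.4) in MILK-NBW and 75.8 (62.5 to 87.3) in MILK-IUGR. VEG-NBW spanned the ranges of the other groups. GRIA4, which is known from granule neurons and Bergmann glia, had a median (and range) of 195 CPM (151 to 207) in VEG-NBW, 185 (167 to 211) in VEG-IUGR, 186 (160 to 200) in MILK-NBW and 193 (171 to 224) in MILK-IUGR. GRIA4 was the most even of the 9 genes, with a highest group mean 1.05 times the lowest. The variation between piglets beyond counting error (biological coefficient of variation) was 9.83% for GRIA4, 11.2% for GRIA3 and 12.03% for GRIN3A. It was 20.6% for GRIN2A and 23.7% for GRIN2B, against a median of 13.7% over all 15356 genes tested.

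**Figure D1:**
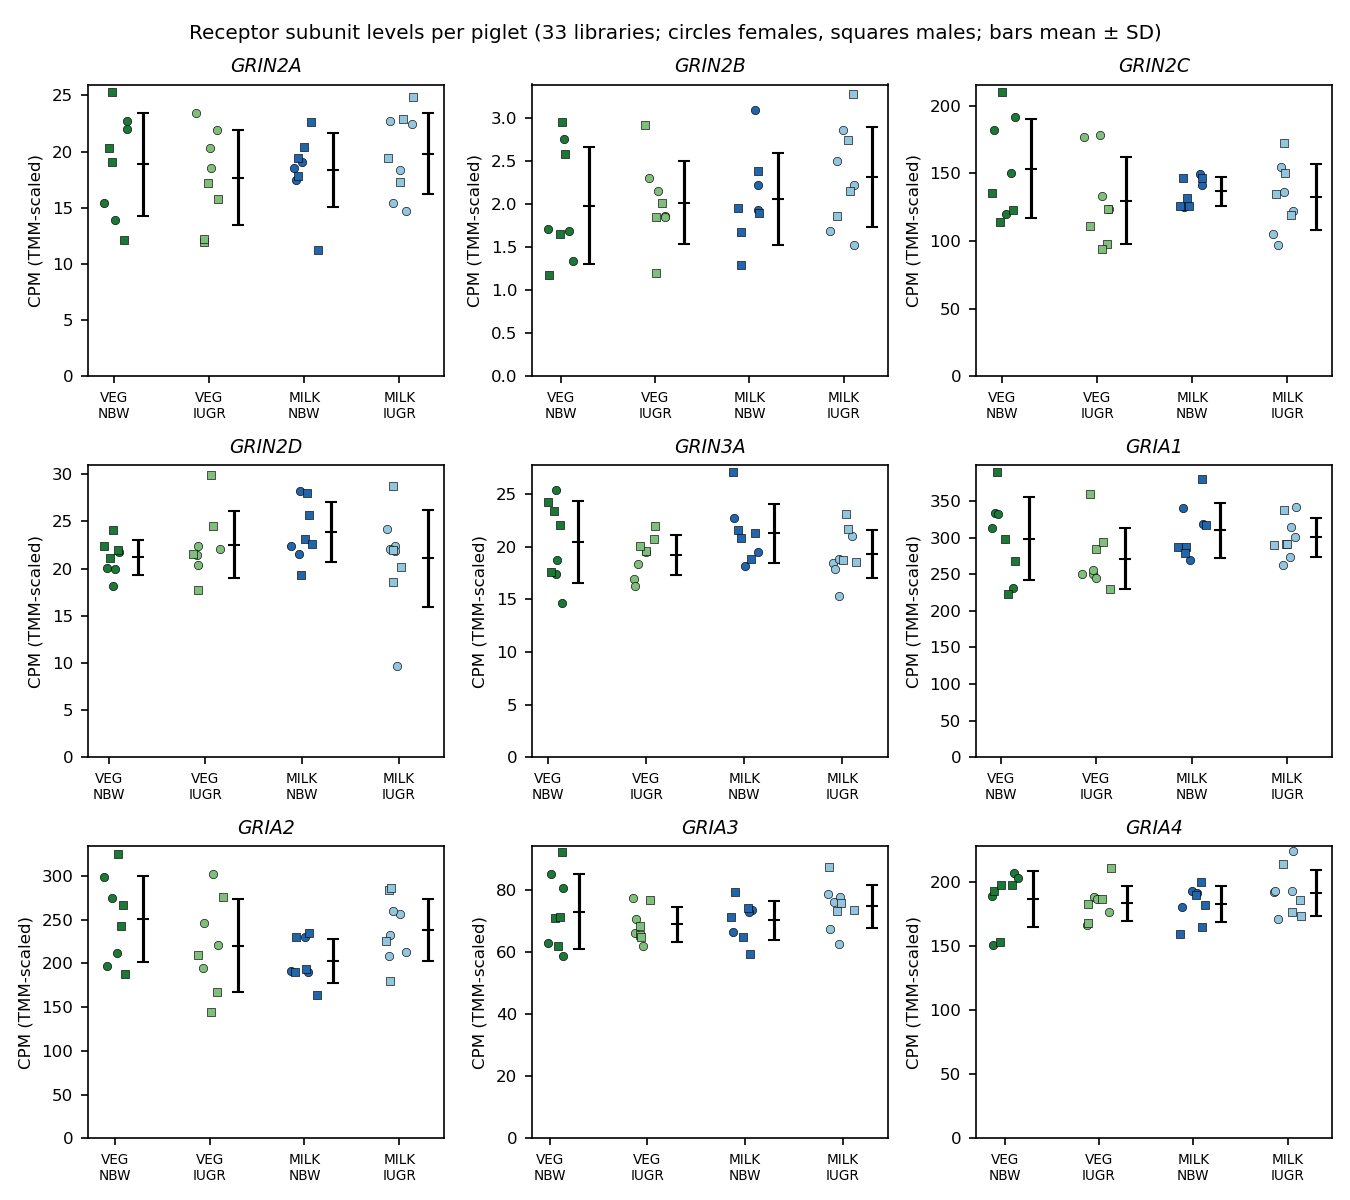
Level of each receptor subunit gene in CPM after TMM scaling (linear axes from 0) for the 33 piglets by group, with circles for females, squares for males and bars for mean ± SD. In all 9 genes the 4 groups overlap, and the widest gap between group means is that of GRIA2, 203 CPM in MILK-NBW against 251 CPM in VEG-NBW.

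The first comparison asked whether the fat source changed the subunits. None of the 9 genes passed for diet in edgeR's quasi-likelihood test with sex as a covariate, as no gene of the 15356 tested did at an adjusted p under 0.05 (0% called). DESeq2 and limma voom called none of the 9 either. At an unadjusted p under 0.05, 4.26% of all genes and none of the 9 were found. The log2 differences of level, MILK minus VEG, ran from −0.09 for GRIA2 (95% interval −0.28 to 0.10) to 0.13 for GRIN2B (−0.16 to 0.42). Their median size was 0.05, as over all genes tested (0.05). For 8 of the 9 genes the 95% interval lay within a 1.3-fold change in either direction, and for GRIN2B within 1.5-fold. With all 36 libraries the differences ran from −0.08 (GRIN2C) to 0.18 (GRIN2B), and none was called.

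For birth weight, none of the 9 genes and 0% of all genes were called, and 2.19% of all genes had an unadjusted p under 0.05. The log2 differences of level, IUGR minus NBW, ran from −0.15 for GRIN2C (SE 0.09, 95% interval −0.34 to 0.04) to 0.10 for GRIN2B (SE 0.14, −0.19 to 0.39). GRIN2C was lower in VEG-IUGR than in VEG-NBW by 0.25 on the log2 scale without passing (unadjusted p = 0.0688, adjusted p = 0.9996, edgeR). With all 36 libraries this difference was −0.69 (95% interval −1.52 to 0.15, unadjusted p = 0.105) and that of GRIN2C for birth weight −0.39 (−0.98 to 0.20, unadjusted p = 0.187). There piglet 210 of VEG-IUGR entered with 0 counts of GRIN2C and piglet 202 of VEG-NBW with 5864, against 1590 to 3710 in the 33 libraries. GRIN3A differed by −0.10 (−0.23 to 0.02) and GRIA1 by −0.09 (−0.22 to 0.05). The intervals of 8 genes lay within 1.3-fold and that of GRIN2B within 1.5-fold.

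The interaction, the diet difference in IUGR piglets minus that in NBW piglets, was not called for any of the 9 genes (0% of all genes called), and 6.09% of all genes had an unadjusted p under 0.05. GRIA2 was the only one of the 9 at that level, with a difference of log2 fold changes of 0.41 (SE 0.18, 95% interval 0.05 to 0.77, unadjusted p = 0.0262, adjusted p = 0.784, edgeR). Its level was 251 ± 49.4 CPM in VEG-NBW and 203 ± 25.3 in MILK-NBW (SD), against 220 ± 53.2 in VEG-IUGR and 238 ± 35.9 in MILK-IUGR. In NBW piglets the MILK group thus had the lower mean and in IUGR piglets the higher one. The other 8 genes had values from −0.25 (GRIN2D) to 0.20 (GRIN2A), and the intervals of only 2 of the 9, GRIN3A and GRIA4, lay within 1.3-fold.

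Of the 4 contrasts between groups, MILK-NBW against VEG-NBW held the largest difference of the 9 genes, that of GRIA2 at −0.30 (SE 0.13, 95% interval −0.56 to −0.04, unadjusted p = 0.0245, adjusted p = 0.721, edgeR). There 0% of all genes were called and 6.67% had an unadjusted p under 0.05, and GRIA2 was the only one of the 9 among them. In MILK-IUGR against VEG-IUGR, VEG-IUGR against VEG-NBW and MILK-IUGR against MILK-NBW, 0% of all genes were called, and 3.9%, 2.29% and 6.24% of all genes but none of the 9 had an unadjusted p under 0.05. These contrasts share groups with each other and with the interaction. With all 36 libraries the interaction of GRIA2 was 0.62 (unadjusted p = 0.0880) and its difference in NBW piglets −0.35 (unadjusted p = 0.171). There piglet 210 of VEG-IUGR entered with 150 counts of GRIA2, against 2684 to 5998 in the 33 libraries.

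The share not assigned and markers of other cell types were also described for these groups. The share was not tested between groups, and no marker gene was called in a comparison. The share of read pairs not assigned to a gene was highest in piglet 215 of VEG-NBW, 30.5%, and this piglet also had the highest GRIA2 level, 325 CPM. Without it the interaction was 0.34 (unadjusted p = 0.0600) and the difference in NBW piglets −0.23 (unadjusted p = 0.0843). With the share as a covariate, these values were 0.29 (unadjusted p = 0.0801) and −0.21 (unadjusted p = 0.0865). Markers of the choroid plexus, of which 4 of 5 were counted, were summed in each piglet. The median (and range) was 100 CPM (21.9 to 260) in VEG-NBW, 97.1 (73.6 to 356) in VEG-IUGR, 80.3 (16.7 to 117) in MILK-NBW and 112 (36.3 to 1674) in MILK-IUGR. OTX2 had the highest median of the 4 genes, 70.9 CPM, against 16.6 for TTR, 5.42 for KCNJ13 and 0.454 for CLIC6 (median count 8). In a typical piglet the sum thus rested mostly on OTX2. Their genes TTR and CLIC6 had an interaction of 4.54 and 4.47 on the log2 scale (unadjusted p = 0.00582 and 0.00539, adjusted p = 0.784 for both, edgeR). In MILK-NBW against VEG-NBW all 4 choroid plexus markers tested were lower.

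In the same contrast all 8 oligodendrocyte markers tested were higher (median log2 difference 0.25), as were all 7 of astrocytes and Bergmann glia (0.09) and all 5 of the endothelium (0.19). Of these, 1, 0 and 1 had an unadjusted p under 0.05 (edgeR), as had 6.67% of all genes. For the interaction, 0 of 8 oligodendrocyte markers were higher (median −0.22), 1 of 7 of astrocytes and Bergmann glia and 1 of 5 of the endothelium. Of the cerebellar neurons, 3 of 9 granule neuron, 5 of 8 Purkinje cell and 6 of 8 interneuron markers were higher in MILK-NBW than in VEG-NBW. Their median log2 differences were −0.07, 9e-04 and 0.09. For the interaction, 6 of 9, 7 of 8 and 2 of 8 of them were higher, in the same order (medians 0.005, 0.14 and −0.11). Oligodendrocyte markers summed to 8489 to 30880 CPM in VEG-NBW, 9512 to 47830 in VEG-IUGR, 14350 to 31120 in MILK-NBW and 12180 to 31940 in MILK-IUGR, so the groups overlapped. Astrocyte and Bergmann glia markers summed to 4982 to 11280, 5410 to 10730, 6769 to 9091 and 5417 to 11350 CPM in the same order, and endothelial markers to 174 to 245, 193 to 283, 218 to 285 and 157 to 269 CPM. The part of these cell types in the GRIA2 result was not tested.

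**Figure D2:**
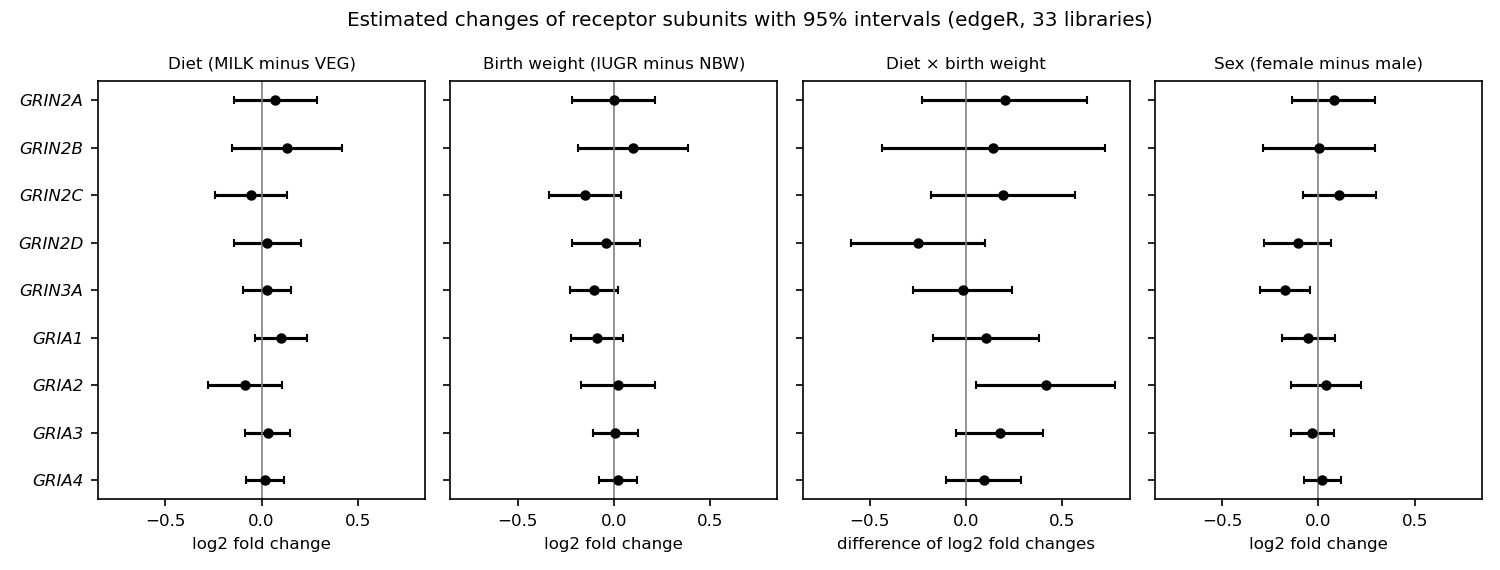
Log2 fold change of each subunit gene for diet, birth weight and sex, and the difference of log2 fold changes for the interaction, as points with 95% intervals from edgeR in 33 libraries. The intervals exclude 0 for the interaction of GRIA2 (0.05 to 0.77) and the sex difference of GRIN3A (−0.30 to −0.04), neither of which passed after adjustment over 15356 genes.

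For sex, 0.163% of all genes were called, 25 of 15356, and none of the 9 receptor genes was among them. At an unadjusted p under 0.05 there were 2.94% of all genes and GRIN3A of the 9. GRIN3A ran from 14.6 to 25.4 CPM in 16 females (median 18.4) and from 17.6 to 27.1 CPM in 17 males (median 21.3). The ranges of the sexes overlapped, with the lowest values in females and the highest in a male. The log2 difference, female minus male, was −0.17 (SE 0.06, 95% interval −0.30 to −0.04, unadjusted p = 0.00976, adjusted p = 0.9997, edgeR), and with all 36 libraries −0.25 (unadjusted p = 0.276). GRIA3, although X-linked, differed by −0.03 (SE 0.06, −0.15 to 0.08). The sex intervals of all 9 genes lay within 1.3-fold.

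The maturation ratios were formed in each piglet from the counts, with 0.5 added to each count. Apart from the added 0.5, a ratio within a library does not depend on how its depth is scaled. As lengths differ between genes, its absolute size has no meaning and only piglets are compared. The ratio of GRIN2C to GRIN2B had a median (and range) of 104 (43.3 to 125) in VEG-NBW, 61.4 (37.6 to 101) in VEG-IUGR, 67.3 (40.1 to 95.3) in MILK-NBW and 54.5 (36.1 to 91.3) in MILK-IUGR. VEG-NBW had the highest median, but it also held 3 piglets near the low end, so that all ranges overlapped. On the log2 scale the ratio was 6.29 ± 0.69 in VEG-NBW, 5.99 ± 0.51 in VEG-IUGR, 6.07 ± 0.37 in MILK-NBW and 5.84 ± 0.46 in MILK-IUGR (mean ± SD).

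The log2 ratio of GRIN2C to GRIN2B was lower by 0.27 in IUGR than in NBW piglets (−0.27, p = 0.148) and differed by −0.19 between MILK and VEG (p = 0.302, both two-sided permutation tests within the other factor). Neither difference exceeded the spread between piglets. With all 36 libraries the birth weight difference was −0.88 (permutation p = 0.0193, adjusted p = 0.463), where piglet 210 of VEG-IUGR entered with 0 counts of both genes, so that its ratio rested on the added 0.5 alone, and piglets 202 and 213 of the NBW groups entered with ratios of 558 and 303. The ratio of GRIN2A to GRIN2B was more even, with medians of 9.14 in VEG-NBW, 9.64 in VEG-IUGR, 9.17 in MILK-NBW and 9 in MILK-IUGR and a range of 5.85 to 15.1 over all piglets. Its log2 differences were −0.06 for diet (permutation p = 0.671) and −0.10 for birth weight (permutation p = 0.485). The GRIN2B count, 19 to 60 read pairs, limits the precision of both ratios.

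The last ratio set GRIA2 against the sum of GRIA1, GRIA3 and GRIA4. Its median was 0.469 in VEG-NBW, 0.426 in VEG-IUGR, 0.353 in MILK-NBW and 0.416 in MILK-IUGR, with a range of 0.236 to 0.725 over all piglets. On the log2 scale MILK-NBW was lower than VEG-NBW by 0.31 (−0.31, exact permutation p = 0.0900), which did not pass, and with all 36 libraries by 0.33 (−0.33, exact permutation p = 0.145). Over the 3 ratios and 8 comparisons, 24 tests in all, the smallest adjusted p was 0.863.

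**Figure D3:**
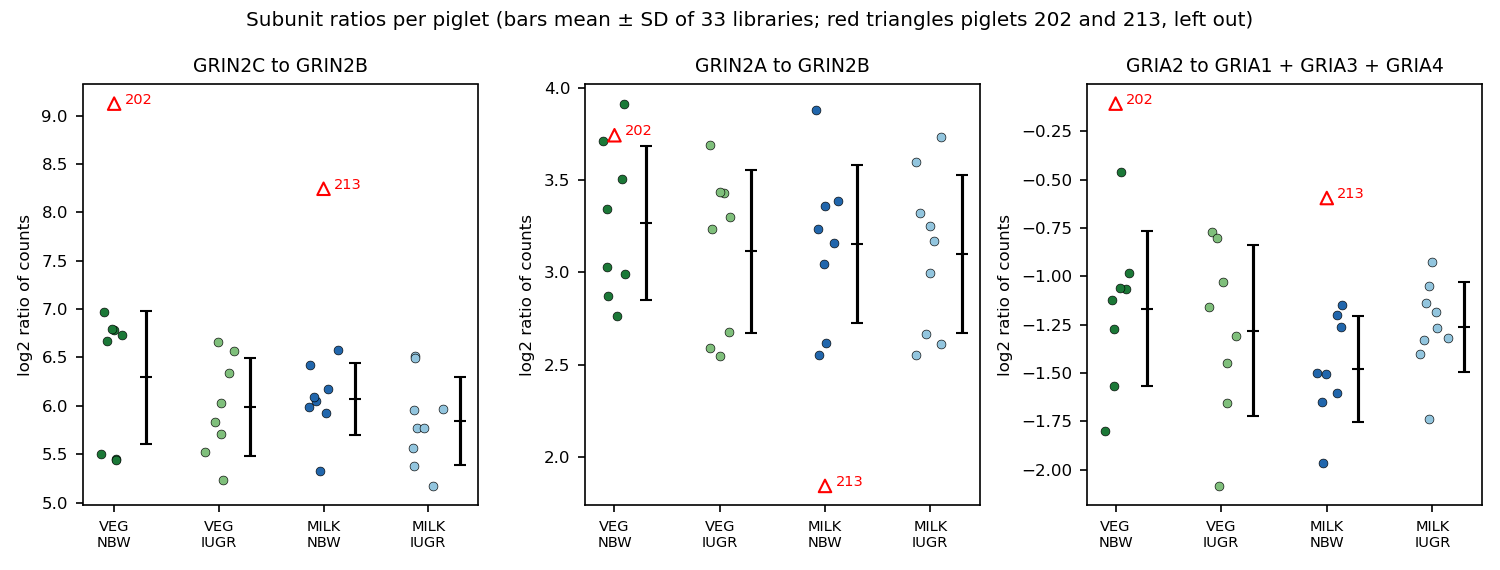
Log2 ratio of counts per piglet for GRIN2C to GRIN2B, GRIN2A to GRIN2B and GRIA2 to the sum of the other AMPA receptor genes, by group, with bars for mean ± SD of 33 libraries and red triangles for piglets 202 and 213, which were left out. The groups overlap in each ratio, and the triangles lie at the top for GRIN2C to GRIN2B (558 and 303 as plain ratios).

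Few subunits varied together between piglets, and the median r over the 36 pairs of the 9 genes was 0.01. Of these pairs, 3 had a Pearson r of log2 CPM that passed after adjustment over the pairs (permutation tests, 33 piglets). GRIN2C and GRIA2 rose and fell together (r = 0.64, adjusted permutation p = 0.00216, Spearman's rho = 0.60, adjusted p = 0.0101), as did GRIN2A and GRIN2C (r = 0.51, adjusted permutation p = 0.0396, rho = 0.48, adjusted p = 0.0549). GRIA1 and GRIA2 moved in opposite directions (r = −0.49, adjusted permutation p = 0.0456, rho = −0.46, adjusted p = 0.0549). Without the 2 piglets farthest from the median on the x axis, r was 0.56, 0.49 and −0.41. GRIN2D and GRIA2 passed by rank only (rho = −0.58, adjusted permutation p = 0.0104, r = −0.43, adjusted p = 0.0549). GRIN2B and GRIN2C, the early and the late subunit, had an r of −0.18 (permutation p = 0.328). With all 36 libraries, in which piglet 210 had 0 to 189 counts of each subunit, all 36 pairs had a positive r that passed (0.61 to 0.98), and r of GRIA1 and GRIA2 turned from −0.49 to 0.67. By rank only GRIN2C with GRIA2 (rho = 0.70, adjusted permutation p = 0.00036) and GRIA1 with GRIA3 (rho = 0.53, adjusted permutation p = 0.0225) passed there, and rho of GRIA1 and GRIA2 was −0.37.

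The genes of the 3 pairs that passed by r also followed the share of read pairs not assigned to a gene, while GRIN2D did not pass (r = 0.06, permutation p = 0.739). Of 12 relations of the 9 genes and the 3 ratios with that share, 5 passed by r after adjustment. The share rose with GRIN2C (r = 0.51, adjusted permutation p = 0.00944, rho = 0.58, adjusted p = 0.00438), GRIA2 (r = 0.52, adjusted permutation p = 0.00944, rho = 0.49, adjusted p = 0.0156) and GRIN2A (r = 0.45, adjusted permutation p = 0.0215, rho = 0.36, adjusted p = 0.103). GRIA1 fell with it (r = −0.50, adjusted permutation p = 0.00984, rho = −0.36, adjusted p = 0.103). The ratio of GRIA2 to the other AMPA receptor genes rose with it (r = 0.60, adjusted permutation p = 0.00144, rho = 0.57, adjusted p = 0.00438).

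Without the 2 piglets farthest from the median share, r fell to 0.41 for GRIN2C, 0.35 for GRIA2, 0.26 for GRIN2A, −0.30 for GRIA1 and 0.40 for the GRIA2 ratio. The ratio of GRIN2C to GRIN2B (r = 0.21, permutation p = 0.242) and that of GRIN2A to GRIN2B (r = 0.26, permutation p = 0.144) did not pass. With all 36 libraries the sign of r turned for GRIN2A (−0.86), GRIN2C (−0.81) and GRIA2 (−0.70), piglet 210 having the highest share and 0, 0 and 150 counts of these genes, while rho was 0.04, 0.49 and 0.42. The GRIA2 ratio kept a positive r of 0.34 (permutation p = 0.0531) and rho of 0.65, and GRIA1 a negative r of −0.95 and rho of −0.48. The part of the share not assigned in the correlated pairs was not tested.

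**Figure D4:**
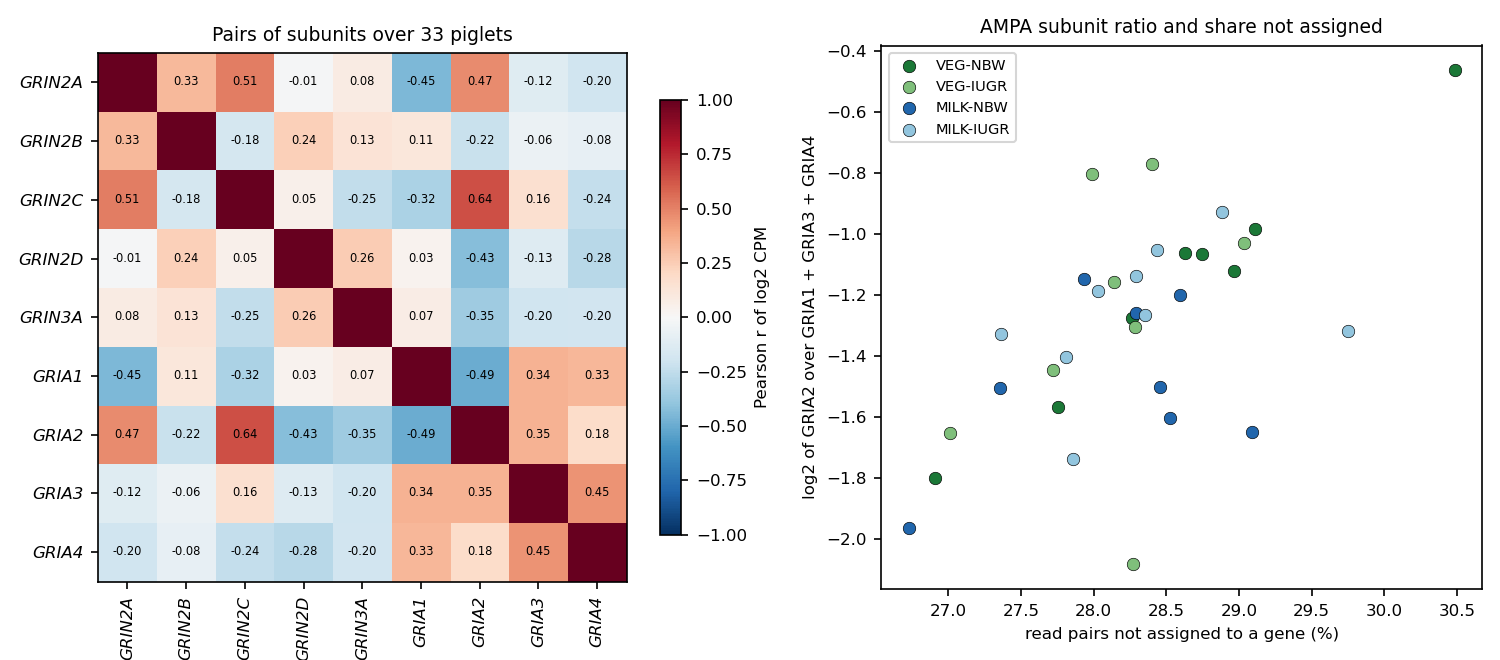
Left, Pearson r of log2 CPM for each pair of subunit genes over 33 piglets (colour from −1 to 1). Right, log2 ratio of GRIA2 to the sum of the other AMPA receptor genes against the percentage of read pairs not assigned to a gene, 1 point per piglet (r = 0.60), with piglet 215 of VEG-NBW at the upper right.

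The 3 libraries left out differed from their groups by subunit. In piglet 202, GRIN2C reached 414 CPM (without TMM scaling) against a VEG-NBW median of 146, 2.84-fold higher, and GRIA2 was 1.41-fold higher. GRIA1 was 2.51-fold lower, GRIN2B 2.32-fold, GRIN2D 2.28-fold and GRIN2A 2.03-fold lower. Of all genes, 28.7% were over 2-fold from the group median in this library.

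In piglet 213 GRIN2A was 10.2-fold lower than the MILK-NBW median, with 30 read pairs, and only 0.59% of all genes were as far down or farther. GRIN2B was 3.88-fold lower and GRIN2D 3.43-fold lower, while GRIN2C was 1.11-fold and GRIA2 1.31-fold higher. In this library 16.6% of all genes were over 2-fold from the group median. Its ratio of GRIN2A to GRIN2B was 3.59 and its ratio of GRIN2C to GRIN2B was 303. In piglet 210, 6513 genes were detected, against 18635 to 19682 in the 33 libraries, and 87.0% of all genes were over 2-fold from the group median. GRIN2A, GRIN2B, GRIN2C, GRIN3A and GRIA3 had 0 counts in this library, which allows up to 0.378 CPM. GRIN2D had 2 counts there, and GRIA1, GRIA2 and GRIA4 had 189, 150 and 122.

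**Figure D5:**
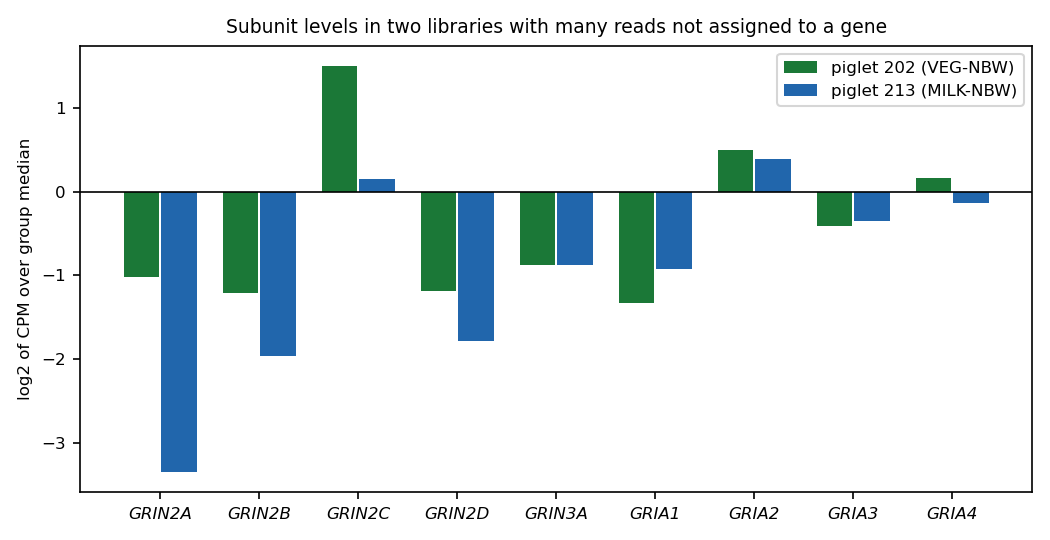
Log2 of the CPM (without TMM scaling) of each subunit gene in piglets 202 and 213 over the median of the kept libraries of the same group, 1 bar per gene and piglet. In both libraries GRIA2 and GRIN2C lie above 0 and GRIN2A, GRIN2B, GRIN2D, GRIN3A, GRIA1 and GRIA3 below it. GRIA4 lies above 0 in piglet 202 (0.16) and below it in piglet 213 (−0.128).

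The genes whose level was most like that of GRIN2C over the 33 piglets were PPFIA4, which encodes the presynaptic scaffold liprin-alpha-4 (r = 0.92, rho = 0.90), RASGEF1C (r = 0.89, rho = 0.87) and SEL1L3 (r = 0.87, rho = 0.84). For GRIN2B they were STUM (r = 0.69, rho = 0.63), ITPRIPL2 (r = 0.61, rho = 0.56) and KPNB1, which encodes the nuclear import factor importin beta (r = 0.61, rho = 0.58). These are descriptions over 15356 genes of libraries that share a range of RNA quality.

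Other glutamate genes were described from 5 lists of 71 genes in all, of which 65 were in the files and 63 were tested. They hold the kainate, delta and GRIN3B receptor genes, the metabotropic receptors, the auxiliary subunits, the scaffolds and signalling proteins, and the genes for glutamate, glycine and D-serine supply. None of the 63 was called in any of the 8 comparisons. At an unadjusted p under 0.05 there was 1 gene for diet, 1 for birth weight, 2 for the interaction and 1 for sex. Over all genes tested, 4.26%, 2.19%, 6.09% and 2.94% were at that level, in the same order. The median log2 difference of the 63 genes was 0.03 for diet and −0.03 for birth weight.

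The smallest unadjusted p of these lists for diet belonged to CACNG5, an auxiliary subunit of AMPA receptors, at 0.35 (SE 0.12, unadjusted p = 0.00618, adjusted p = 0.985, edgeR), followed by NETO2, an auxiliary subunit of kainate receptors, at −0.12 (unadjusted p = 0.0650). For birth weight they were CNIH3, which aids AMPA receptor export, at −0.23 (unadjusted p = 0.0172) and the glycine transporter SLC6A5 at 0.17 (unadjusted p = 0.0907). For the interaction they were OLFM2 at −0.32 (unadjusted p = 0.0216) and SHISA9, whose product slows AMPA receptor recovery, at −0.46 (unadjusted p = 0.0318). For sex they were NSF, whose product binds the GRIA2 subunit, at 0.10 (unadjusted p = 0.0342) and CACNG4 at −0.15 (unadjusted p = 0.0578). As for the subunits themselves, none of these differences of log2 level passed after adjustment.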

How the data were processed

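The authors deposited 1 file a piglet with unnormalized counts of read pairs on Ensembl pig genes and 5 closing lines for read pairs not assigned to a gene. Per the labels, the libraries of total RNA were read from both ends, and the submitters' processing notes name Trim Galore, HISAT2, HTSeq and DESeq2, without versions, and the build Sscrofa11.1. The strand setting is not given in the sources used here, so reads of overlapping antisense genes cannot be told apart. Of 31907 identifiers, 15029 matched a symbol. The files hold no normalized values.

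Groups and sex came from the labels. Each piglet is 1 library, and the labels pair no piglets across groups and name no batch. The p-values set a difference or a correlation against the variation between piglets. The study dropped a library from every group but MILK-IUGR for degraded RNA and does not say which piglets these were. Here 3 of 36 libraries were left out, those whose share of read pairs not assigned stood apart in its group (gap over range above 0.493, Dixon, 9 piglets). The subunits, the other gene lists and this choice were made with earlier results of these data known.

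The quasi-likelihood F test of edgeR 4.0.16 (R 4.3.3) was run on the counts after TMM scaling and filterByExpr (minimum count 10), sex being a covariate, and p-values were adjusted by Benjamini-Hochberg over all 15356 genes tested. Diet and birth weight were tested without their interaction, and the interaction, the 4 contrasts between groups and sex in a model of the 4 group means. Ratios were tested by permutation, exactly for contrasts between groups and otherwise with 100000 permutations, and adjusted over 24 tests. Correlations used log2 CPM (prior count of 2) and 100000 permutations, adjusted over 36 pairs or, for the share not assigned, over 12 relations, as GRIN1 had no counts. Folds of the 3 libraries left out had 0.05 CPM added. Named beside the subunits were, of the other glutamate genes, any that were called and those with the smallest 2 unadjusted p-values for diet, birth weight, the interaction and sex, and the 3 genes most correlated with GRIN2B and with GRIN2C. TTR, CLIC6 and the marker genes were named beside them.

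Alternatives were all 36 libraries, no piglet 207, DESeq2 1.42.0 with sex, limma 3.58.1 voom with quality weights, DESeq2's size factors in edgeR, no filter on low counts, no sex term, 5 added to each count of a ratio, a linear model of the ratios with permuted residuals, and correlations of residuals after group and sex. Leaving out piglet 215 and the share not assigned as a covariate were added after seeing the data. The tests were tested on simulated data. Python 3.11.15 was used for the rest.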

Additional observations from a re-analysis of the deposited data

Results flagged for a closer look

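In 1 of 48 groups of values (12 measures in 4 groups) a piglet stood apart from the rest of its group by Dixon's criterion, and chance alone sets apart about 1 group in 20. It was GRIN2A in piglet 234 of MILK-NBW, at 11.3 CPM against 17.5 CPM in the next piglet, a gap of 0.549 of the range of the group. The same piglet had the lowest GRIA2 and the highest GRIA1 level of MILK-NBW, 164 and 380 CPM, and the lowest share of read pairs not assigned to a gene of the 33 libraries, 26.7%, a measure that these 3 genes followed over the piglets. The part of that share in this value was not tested.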

How the results depend on the processing

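No receptor subunit gene was called in any of the 8 comparisons under any alternative, and the smallest adjusted p over them was 0.549 (limma voom). The log2 differences of single genes kept their sign in 60 of 72 cases with all 36 libraries, in which the largest shift was 0.44, in 66 of 72 with limma voom and with the share not assigned as a covariate, in 67 of 72 without piglet 215 and in 69 of 72 without piglet 207. With DESeq2 it was 71 of 72, without sex 62 of 63, and with DESeq2's size factors in edgeR or no filter 72 of 72. The unadjusted p of the lower GRIA2 level in MILK-NBW than in VEG-NBW was 0.0601 with limma voom. The count of correlated pairs by r was 3, was 36 of 36 with all 36 libraries, but 2 by rank, and was 5 for residuals after group and sex. By rank, GRIN2C with GRIA2 and GRIN2D with GRIA2 passed in the 33 libraries. For the residuals only GRIN2C with GRIA2 passed by rank (rho = 0.67, adjusted permutation p = 0.00108). The count of relations with the share not assigned by r was 5 and, with all 36 libraries, 11, in which r of GRIN2A, GRIN2C and GRIA2 had turned from positive to negative. By rank only GRIN2C, GRIA2 and the GRIA2 ratio passed in the 33 libraries, and with all 36 only GRIA1 was added to them. No ratio passed after adjustment under any alternative. GRIN2B, with 19 to 60 read pairs, is the subunit that depth limits most. No paired analysis was possible because the labels give each piglet its own number and pair none across groups.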

Other observations

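Marker genes of other cerebellar cell types, none of which was called in a comparison at an adjusted p under 0.05 (edgeR), gave the following values. Granule progenitor markers, of which 6 of 7 were tested, had 2 genes higher and 4 lower in MILK than in VEG. Of the lower ones 2 had an unadjusted p under 0.05, as had 4.26% of all genes, ATOH1 at −0.29 (unadjusted p = 0.0230) and TOP2A at −0.18 (unadjusted p = 0.0493) on the log2 scale. These genes were named after their values were seen. Their list summed to 178 to 271 CPM in VEG-NBW, 183 to 270 in VEG-IUGR, 185 to 256 in MILK-NBW and 159 to 244 in MILK-IUGR, so the groups overlapped. For granule neurons, 0 of 9 markers were at that level for diet, birth weight or the interaction, and 1 of 9 was for sex.

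The oligodendrocyte markers varied most between piglets among the abundant cell types, from 8489 to 47830 CPM summed (median 19110). The summed markers of Purkinje cells ran from 2391 to 5042 CPM and those of astrocytes and Bergmann glia from 4982 to 11350 CPM. Interneuron markers summed to 788 to 1195 CPM, microglial markers to 78.5 to 251 CPM, endothelial markers to 157 to 285 CPM and red blood cell genes to 1.78 to 62.1 CPM.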
